A study of Mus musculus with 45 samples.

Results

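The levels of 8 genes of the Nodal and Activin pathway were followed by RNA sequencing while male mouse embryonic stem cells (ESCs) left naive pluripotency: the ligands Nodal and Gdf3, the co-receptor Tdgf1 (also called Cripto), the receptor Acvr2b, the transcription factor Foxh1, the secreted inhibitors Lefty1 and Lefty2, and the intracellular inhibitor Smad7. They were chosen by symbol, with earlier results of these data known, and all 8 were found among the 35372 genes counted. The cells were wild-type E14tg2a ESCs, an established male line of 129/Ola origin, so every culture came from 1 line. They were maintained either in 2iL, which is N2B27 medium with LIF and the inhibitors CHIR99021 (against GSK3) and PD0325901 (against MEK), or in SL, which is serum with LIF. Each starting population was then differentiated in 3 ways. In FA, cells grew on gelatin in N2B27 with Fgf2 and ActivinA, in N2B27 they received the base medium alone, and as embryoid bodies (EBs) they were kept in suspension in serum without LIF. FA is labelled EpiSC and N2B27 is labelled Neural in the sample descriptions. FA differs from N2B27 by 2 added proteins, so an effect of Activin and an effect of Fgf2 cannot be told apart, and FA differs from EB also by serum and by attachment.

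Nodal and Activin are secreted signals of the TGF-beta family. They bind complexes of type I and type II receptors, and the activated receptors phosphorylate Smad2 and Smad3, which enter the nucleus with Smad4 and act on target genes with partners such as Foxh1. Nodal and Gdf3 need a co-receptor of the Cripto family, whereas Activin does not. Lefty1, Lefty2, Smad7 and Nodal itself are known targets of the pathway, so that it holds both positive and negative feedback, and in the early embryo it maintains the epiblast and forms the primitive streak.

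In the GRCm38 annotation (GENCODE vM21), Nodal (ENSMUSG00000037171) is at chr10:61417972-61425338 on the plus strand and Gdf3 (ENSMUSG00000030117) at chr6:122605403-122610087 on the minus strand. Tdgf1 (ENSMUSG00000032494) is at chr9:110939603-110946158 on the minus strand, Acvr2b (ENSMUSG00000061393) at chr9:119402118-119434995 on the plus strand and Foxh1 (ENSMUSG00000033837) at chr15:76668225-76669948 on the minus strand. The identifier of Smad7 is ENSMUSG00000025880. Lefty1 (ENSMUSG00000038793, chr1:180935022-180938400) and Lefty2 (ENSMUSG00000066652, chr1:180893108-180899103) lie close together on the plus strand of chromosome 1. All 8 are protein-coding, and the values are counts over their annotated exons. Acvr2b overlaps an annotated antisense gene, Gm47320, which has no row of its own, and counting was strand-specific.

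The inhibitor pair is a recent duplicate whose reads could be shared, so both coding sequences were compared in the GENCODE vM21 transcripts. Over the whole coding sequence, 1014 of 1104 aligned bases (91.8%) were identical. Of the 50-base stretches of each annotated transcript, 17.9% of those in Lefty1 and 11.6% of those in Lefty2 occur exactly in the other, so most reads could be placed but some could not. How the counting treated such reads is not given in the sources used here, and the split of counts between Lefty1 and Lefty2 is therefore uncertain where a value turns on it.

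There were 45 libraries, 1 for each starting medium, culture and day, at days 1, 1.5, 2, 2.5, 3, 5 and 7, with 3 libraries at day 0 in 2iL (1 per time course) and 1 at day 0 in SL. Day 5 of the FA course from 2iL was not analysed here. Counts per library ranged from 13093226 to 39804240 (median 18222720), and a count of 3 corresponds to a median of 0.165 CPM, the count divided by the library total and scaled to the same total in every library. The EB libraries from 2iL were among the deepest. Of 990 pairs of libraries, none were as close as counting noise alone would make them: the closest pair, days 2 and 2.5 of FA from SL, differed by 8.52 times that noise. As no condition was repeated, libraries of neighbouring days and of both starting media served as the replicates of a culture, in 3 windows: days 1 to 2 (18 libraries), days 2.5 and 3 (12 libraries) and days 5 and 7 (11 libraries). The p-values thus measure the spread between days and media within 6 time courses, not between separate repeats of a culture. With 2 courses per culture, an exact paired test over courses could not go below p = 0.5.

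The labelled states were checked against marker genes. Summed CPM of 8 naive markers (Zfp42, Esrrb, Tfcp2l1, Nanog, Klf2, Klf4, Prdm14 and Tbx3) was 4194 to 4468 at day 0 in 2iL and 2531 at day 0 in SL, against 154 to 1290.2 in FA at days 1 to 2. Neural markers (8 genes, among them Sox1 and Pax6) summed to 385 to 681 CPM in N2B27 at days 5 and 7, to 178 to 432 CPM in FA and to 102 to 263 CPM in EBs. In the same window 7 markers of extraembryonic endoderm, among them Gata6, Gata4 and Sox7, summed to 3144 to 11771 CPM in N2B27, against 393 to 881 CPM in FA and 222 to 1748 CPM in EBs, with no gene of the list at 0 in any group. The 7 primed epiblast markers (such as Fgf5 and Otx2) summed to 263 to 487 CPM in N2B27, 618 to 929 CPM in FA and 494 to 2844 CPM in EBs, and 8 mesoderm markers to 111 to 372, 20.4 to 30.0 and 51.5 to 647 CPM. Thus the N2B27 libraries of days 5 and 7, labelled Neural, also held much RNA of endoderm markers, and their part in the differences at those days was not tested. In such bulk libraries fewer cells of a type and less RNA per cell cannot be told apart.

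The comparison of FA with N2B27 asks what the pathway genes did where Activin and Fgf2 were supplied. The inhibitors Lefty1, Lefty2 and Smad7, the ligand Nodal and the co-receptor Tdgf1 were higher in FA than in N2B27 at days 1 to 2 and at days 2.5 and 3. At days 5 and 7 the same was found for Lefty1, Lefty2, Nodal and Tdgf1, joined by Foxh1. Lefty1 and Lefty2 differed most, from 5.94-fold and 7.97-fold at days 1 to 2 to 44.7-fold and 24.7-fold at days 5 and 7. Gdf3 passed the threshold in no window, and Acvr2b was slightly lower in FA at days 1 to 2. At an adjusted p under 0.05 (edgeR quasi-likelihood test, adjusted over all genes), 6 of the 8 genes passed at days 1 to 2, of which 5 were higher, when 6.59% of all genes tested passed and 3.88% were higher. In the windows of days 2.5 and 3 and of days 5 and 7, 5 passed and all 5 were higher, when 14.8% and 16% of all genes passed and 7.05% and 7.35% were higher. The median log2 difference over the 8 genes was 0.74 at days 1 to 2, whereas over all genes it was -0.0024.

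The early calls were not equally firm. With an estimated correlation between libraries of a time course, the adjusted p at days 1 to 2 was 0.108 for Tdgf1, 0.119 for Nodal and 0.135 for Acvr2b, whereas Lefty1, Lefty2 and Smad7 kept an adjusted p of 0.0113, 0.0160 and 0.00224. Leaving out any 1 medium and day of the 6 also ended the Tdgf1 call (adjusted p between 0.0524 and 0.145). The Nodal call was lost in 5 of these 6 omissions (0.0724 to 0.107, kept without day 1 of SL) and the Acvr2b call in 4 (0.0706 to 0.0959, kept without day 1.5 of 2iL or day 2 of SL). When counts were summed over the days of a course, leaving 6 libraries, none of the 8 genes passed at days 1 to 2, nor did any of the 16295 genes tested. In a fit with no block for medium and day, only Smad7 and Lefty2 passed (adjusted p = 0.0270 and 0.0456). The Lefty1 call was lost in that fit (0.132).

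**Figure D1:**
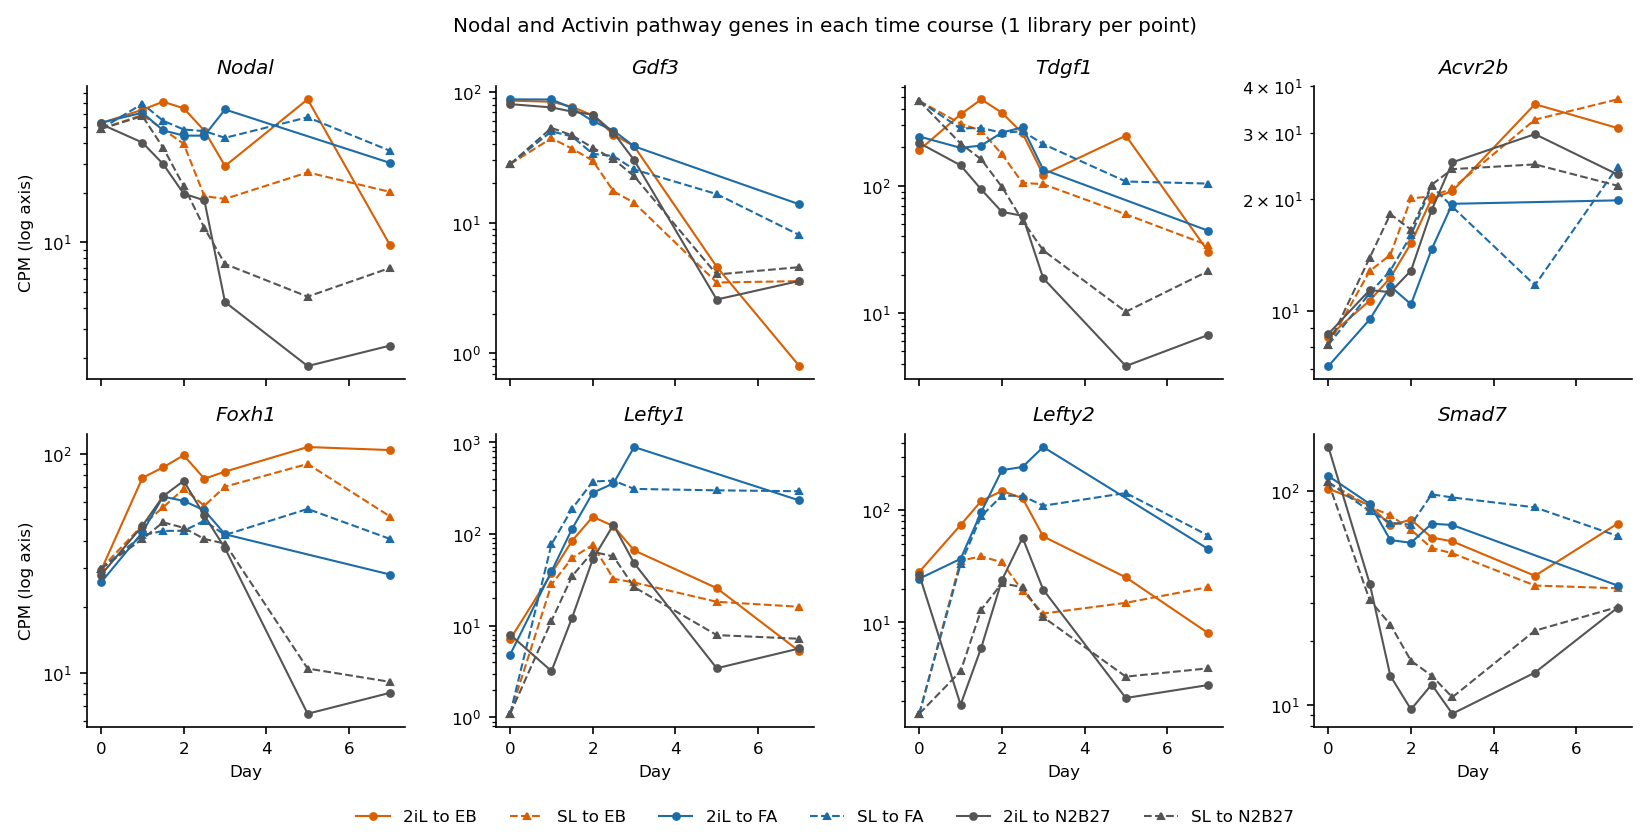
Level of each gene in CPM (log axis, a separate scale for each gene) against the day, for EB (orange), FA (blue) and N2B27 (grey) courses from 2iL (circles, solid lines) and SL (triangles, dashed lines), with 1 library per point and the same SL day 0 library at the start of the 3 SL courses. Lefty1 climbed to 892 CPM in FA from 2iL at day 3, while Nodal, Tdgf1 and Smad7 in N2B27 sank below the other cultures by day 3.

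Nodal, the ligand that gives the pathway its name, was near its starting level in FA up to day 3 and became scarce in N2B27. It was at 52.0, 52.7 and 53.0 CPM in the 3 day 0 libraries in 2iL and at 48.7 CPM at day 0 in SL. At days 1 to 2 Nodal had a lowest, median and highest value of 44.3, 51.4 and 69.0 CPM in FA and of 19.7, 33.6 and 58.2 CPM in N2B27. The groups overlapped, yet FA was the higher in 6 of 6 pairs of the same medium and day, and the log2 difference was 0.58 ± 0.15 (SE, adjusted p = 0.0363).

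By days 2.5 and 3 the Nodal values no longer overlapped. They were 44.2 and 63.7 CPM in FA from 2iL and 47.1 and 42.9 CPM in FA from SL, against 17.9, 4.34, 12.2 and 7.38 CPM in N2B27. The difference was 2.27 ± 0.35 (adjusted p = 0.00412), with FA higher in every pair by between 2.47 and 14.7 times. At days 5 and 7 Nodal was at 30.2 (2iL, day 7), 57.2 and 35.8 CPM (SL) in FA and at 1.78, 2.37, 4.68 and 7.0 CPM in N2B27, a log2 difference of 3.49 ± 0.59 (adjusted p = 0.00955). The 2 N2B27 values from 2iL rest on 31 and 41 counts. This late Nodal call was lost without day 7 of 2iL (adjusted p = 0.0633) or day 5 of SL (0.0707).

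In EBs the Nodal level varied with the starting medium and day. It was at 39.5 to 71.0 CPM in EBs at days 1 to 2, overlapping FA, and the difference of FA against EB was -0.14 ± 0.15 (adjusted p = 0.507). In the 2iL courses alone FA was below EB (-0.45, adjusted p = 0.0479), whereas in the SL courses alone the difference was 0.22 (adjusted p = 0.245). In EBs from 2iL Nodal was at 73.4 CPM at day 5, above every FA library of days 5 and 7, and at 9.56 CPM at day 7. FA exceeded EB in 3 of 4 pairs at days 2.5 and 3 (0.95 ± 0.33, adjusted p = 0.0511) and in 3 of 3 at days 5 and 7 (0.87 ± 0.60, adjusted p = 0.450), and neither difference passed the threshold.

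Gdf3, a ligand of the same family that is abundant in naive cells, was lower at days 5 and 7 than at days 1 to 2 in every culture, and FA did not differ past the threshold from N2B27 or from EB in any window. It was at 80.8 to 88.0 CPM at day 0 in 2iL and at 28.1 CPM in SL, where it was higher at day 1, at 44.3 to 53.2 CPM. At days 1 to 2 its lowest, median and highest values were 33.6, 54.9 and 87.7 CPM in FA, 37.5, 60.2 and 76.3 CPM in N2B27 and 29.9, 55.3 and 84.3 CPM in EBs. These ranges overlapped almost wholly, and the log2 difference of FA against N2B27 was -0.15 ± 0.07 (adjusted p = 0.220).

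Late in the courses the FA values of Gdf3 were the highest. At days 5 and 7 they were 13.8 CPM (2iL, day 7), 16.6 and 8.04 CPM (SL) in FA, against 2.58, 3.58, 4.01 and 4.57 CPM in N2B27 and 4.60, 0.799, 3.48 and 3.57 CPM in EBs. No FA value overlapped the other cultures. The log2 differences were 1.76 ± 0.51 against N2B27 (adjusted p = 0.0523) and 2.22 ± 0.55 against EB (adjusted p = 0.0738), neither past the threshold. Both were past it with an estimated correlation within a time course (adjusted p = 0.0372 and 0.0358) and with DESeq2 (0.00662 and 0.000839).

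Tdgf1 encodes the co-receptor Cripto, through which Nodal binds its receptors, and its courses resembled those of Nodal. Its level at day 0 was 191, 217 and 244 CPM in 2iL and 464 CPM in SL. At days 1 to 2 the lowest, median and highest values were 199, 261 and 285 CPM in FA, 62.5, 122 and 215 CPM in N2B27 and 177, 336 and 478 CPM in EBs. FA exceeded N2B27 in 6 of 6 pairs, although the ranges overlapped, with a log2 difference of 0.90 ± 0.24 (adjusted p = 0.0394). Against EB the difference was -0.41 ± 0.24 (adjusted p = 0.199), and in the 2iL courses alone it passed the threshold (-0.90, adjusted p = 0.0253).

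On days 2.5 and 3 Tdgf1 was at 288 and 134 CPM in FA from 2iL and at 268 and 213 CPM in FA from SL. The corresponding N2B27 libraries held 58.2, 18.8, 53.3 and 31.1 CPM, all below every FA value, and the log2 difference was 2.47 ± 0.25 (adjusted p = 0.000733). By days 5 and 7 FA held 44.3, 108 and 104 CPM and N2B27 held 3.84, 6.75, 10.3 and 21.4 CPM (3.07 ± 0.72, adjusted p = 0.0282). The gap in relative terms was thus between 4.86 and 10.5 times in the 3 pairs of that window. This late Tdgf1 call was lost without day 7 of 2iL (adjusted p = 0.112), day 5 of SL (0.135) or day 7 of SL (0.0780). It was also lost with counts summed over the days of a course (0.0933).

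In EBs, Tdgf1 was at 259 CPM at day 2.5, 122 CPM at day 3, 248 CPM at day 5 and 30.3 CPM at day 7 in the course from 2iL. The EB course from SL fell steadily, from 308 CPM at day 1 to 34.1 CPM at day 7. The difference of FA against EB did not pass the threshold at days 2.5 and 3 (0.67 ± 0.23, adjusted p = 0.0543) or at days 5 and 7 (0.52 ± 0.77, adjusted p = 0.744).

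Acvr2b, a type II receptor for Activin and Nodal, rose in all 3 cultures and was the only one of the 8 genes that passed the threshold as lower in FA than in N2B27. It was at 7.12 to 8.68 CPM at day 0 in 2iL and 8.12 CPM in SL. At days 1 to 2 the lowest, median and highest values were 9.49, 11.4 and 15.96 CPM in FA, 11.2, 13.4 and 18.2 CPM in N2B27 and 10.7, 13.5 and 20.02 CPM in EBs. The ranges overlapped and the differences were small, -0.36 ± 0.09 against N2B27 (lower in 5 of 6 pairs, adjusted p = 0.0253) and -0.28 ± 0.08 against EB (lower in 6 of 6 pairs, adjusted p = 0.0195, or 0.0591 with an estimated correlation).

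Later Acvr2b values were 14.6, 19.4, 21.6 and 19.0 CPM in FA at days 2.5 and 3 and 19.8, 11.7 and 24.3 CPM at days 5 and 7. In N2B27 they were 18.6, 25.0, 21.8 and 23.98 CPM and then 29.8, 23.2, 24.7 and 21.7 CPM. In EBs they reached 35.8, 30.9, 32.5 and 36.9 CPM at days 5 and 7, above every FA library of that window. None of the later differences passed the threshold, the nearest being -0.35 ± 0.11 against N2B27 at days 2.5 and 3 (adjusted p = 0.0529) and -0.83 ± 0.21 against EB at days 5 and 7 (adjusted p = 0.0757). The latter passed with an estimated correlation (adjusted p = 0.0332) and with DESeq2 (0.00696), and the former with DESeq2 (0.0351) but not with an estimated correlation (0.0770).

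Foxh1, the forkhead factor that partners Smad2 and Smad3 on target genes, was the only gene of the 8 whose level was lower in FA than in EB at both early windows and higher in FA than in N2B27 at days 5 and 7. From 25.8 to 29.3 CPM at day 0 in 2iL and 29.8 CPM in SL, it reached lowest, median and highest values at days 1 to 2 of 42.3, 44.4 and 63.6 CPM in FA, 40.7, 47.7 and 75.1 CPM in N2B27 and 47.0, 73.2 and 98.3 CPM in EBs. FA and N2B27 were close (-0.21 ± 0.08, adjusted p = 0.125), whereas FA was below EB in 6 of 6 pairs (-0.55 ± 0.08, adjusted p = 0.000158). The same held at days 2.5 and 3 (FA against EB -0.58 ± 0.12, lower in 4 of 4 pairs, adjusted p = 0.00650).

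At days 5 and 7 the 3 cultures were ordered without overlap except between FA and EB. Foxh1 was at 107, 104, 89.7 and 51.6 CPM in EBs, at 28.01, 55.9 and 40.7 CPM in FA and at 6.48, 8.08, 10.4 and 9.06 CPM in N2B27. FA exceeded N2B27 by a log2 difference of 2.19 ± 0.31 (adjusted p = 0.00581). The difference against EB, -1.07 ± 0.32, did not pass the threshold (adjusted p = 0.111).

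Lefty1 and Lefty2 encode secreted antagonists that block Nodal and its co-receptor, and they were the genes that set FA apart most clearly. At day 0, Lefty1 was at 4.86, 7.14 and 7.98 CPM in 2iL and Lefty2 at 24.6, 26.6 and 28.3 CPM. In SL at day 0 both were near the lower end of detection, with 20 counts of Lefty1 (1.10 CPM, 95% Wilson interval 0.710 to 1.69) and 28 counts of Lefty2 (1.54 CPM, interval 1.06 to 2.22). These intervals cover counting error only.

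At day 1, with 1 library each, both genes were higher in FA and EBs than in N2B27. Lefty1 at day 1 was 39.2 CPM in FA, 37.3 CPM in EBs and 3.21 CPM in N2B27 in the 2iL courses, and 77.7, 28.3 and 11.3 CPM in the SL courses. Lefty2 at day 1 was 36.9 CPM in FA, 73.9 CPM in EBs and 1.85 CPM in N2B27 from 2iL, where the N2B27 value rests on 41 counts, and 33.1, 35.5 and 3.68 CPM from SL. In N2B27 from 2iL both genes thus stood below their day 0 values at day 1, and afterwards climbed to 126 CPM (Lefty1) and 57.0 CPM (Lefty2) at day 2.5.

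Over days 1 to 2 the lowest, median and highest values of Lefty1 were 39.2, 152 and 375 CPM in FA, 3.21, 23.6 and 64.3 CPM in N2B27 and 28.3, 65.7 and 155 CPM in EBs. The log2 difference of FA against N2B27 was 2.57 ± 0.31 (adjusted p = 0.000978) and against EB 1.04 ± 0.30 (adjusted p = 0.0153), with FA higher in 6 of 6 pairs each time. Against EB it was 1.86 in the SL courses alone (adjusted p = 0.000252) and 0.38 in the 2iL courses alone (adjusted p = 0.333). The Lefty1 call against EB was lost without day 1 (adjusted p = 0.0574) or day 1.5 (0.0594) of SL. For Lefty2 the values were 33.1, 92.4 and 228 CPM in FA, 1.85, 9.49 and 23.9 CPM in N2B27 and 34.3, 56.4 and 149 CPM in EBs. FA and N2B27 did not overlap for Lefty2 (2.99 ± 0.43, adjusted p = 0.00307), whereas FA and EB did, and their difference was 0.20 ± 0.39 (adjusted p = 0.717).

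The highest value of either gene came at day 3 in FA from 2iL. In FA from 2iL, Lefty1 was at 358 CPM at day 2.5 and 892 CPM at day 3, and in FA from SL at 384 and 312 CPM. In N2B27 it was at 126, 48.2, 57.0 and 26.4 CPM and in EBs at 122, 66.5, 32.6 and 29.7 CPM. Every FA library stood above every other library of the window, by a log2 difference of 2.99 ± 0.40 against N2B27 (adjusted p = 0.00255) and 3.19 ± 0.40 against EB (adjusted p = 0.000480).

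Lefty2 in the same window was at 243, 366, 134 and 110 CPM in FA. It was at 57.0, 19.6, 20.6 and 11.2 CPM in N2B27 and at 128, 58.4, 19.1 and 12.0 CPM in EBs. FA exceeded N2B27 by 3.04 ± 0.37 (adjusted p = 0.00176) and EB by 2.42 ± 0.36 (adjusted p = 0.00116), although the day 2.5 EB library from 2iL (128 CPM) lay within the range of FA.

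At days 5 and 7 Lefty1 was at 233 (2iL, day 7), 301 and 294 CPM (SL) in FA, below its day 3 level of 892 CPM in the course from 2iL and close to that of 312 CPM in the course from SL. It was at 3.44, 5.66, 7.92 and 7.22 CPM in N2B27 and at 25.8, 5.27, 18.3 and 16.1 CPM in EBs. Lefty2 was at 45, 143 and 59.4 CPM in FA, at 2.12, 2.77, 3.29 and 3.90 CPM in N2B27 and at 25.2, 8.01, 15.0 and 20.7 CPM in EBs. No FA value overlapped another culture for either gene. Against N2B27 the log2 difference was 5.48 ± 0.45 for Lefty1 (adjusted p = 0.00126) and 4.63 ± 0.44 for Lefty2 (adjusted p = 0.00197). Against EB it was 4.28 ± 0.46 for Lefty1 (adjusted p = 0.00692) and 2.30 ± 0.42 for Lefty2 (adjusted p = 0.0341). The EB calls rested on few libraries: without the SL libraries of day 5 the adjusted p rose to 0.0958 for Lefty1 and 0.202 for Lefty2, and without those of day 7 to 0.0716 and 0.0996.

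The balance of the pair changed as well. Lefty1 took 16.5% to 23.1% of the reads on both genes at day 0 in 2iL and 41.7% at day 0 in SL. From day 1 on it took a median of 57.5% in FA, 67.4% in N2B27 and 48.9% in EBs in the courses from 2iL, and of 73.5%, 72.8% and 58.6% in those from SL. The highest shares were those of FA at day 7, 83.8% from 2iL and 83.2% from SL, and the N2B27 share exceeded the EB share at every day from 2iL. Summed over both genes, which removes the uncertain split of reads, FA still exceeded N2B27 in the 3 windows, by 2.74 (adjusted p = 0.00304), 3.02 (0.00221) and 5.24 (0.000944). Against EB the sum was higher in FA at days 2.5 and 3 (2.92, adjusted p = 0.000642) and at days 5 and 7 (3.56, adjusted p = 0.00746). The summed difference against EB at days 1 to 2 was 0.62 (adjusted p = 0.203), so the Lefty1 call of that window was not kept in the sum.

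**Figure D2:**
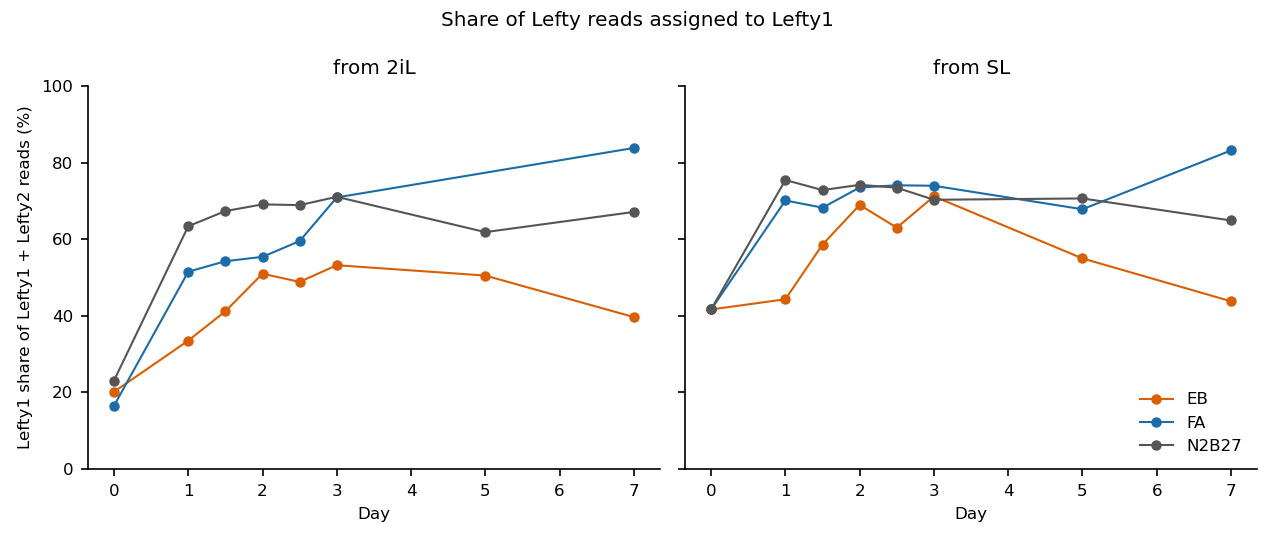
Reads assigned to Lefty1 as a percentage of all reads assigned to Lefty1 or Lefty2, by day, for each culture from 2iL (left) and SL (right), 1 library per point. Shares began at 16.5% to 23.1% in 2iL and 41.7% in SL and ended at 83.8% and 83.2% in FA at day 7.

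Smad7 encodes an inhibitory Smad that blocks the activated receptor inside the cell. It was high at day 0, at 102, 117 and 160 CPM in 2iL and 109 CPM in SL, and N2B27 was the culture that departed from the others. At days 1 to 2 the lowest, median and highest values were 57.2, 70.2 and 86.9 CPM in FA, 65.9, 75.1 and 85.6 CPM in EBs and 9.58, 19.97 and 37.0 CPM in N2B27. FA and EB overlapped (-0.15 ± 0.14, adjusted p = 0.430), whereas FA and N2B27 did not (1.65 ± 0.15, adjusted p = 0.000221).

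On days 2.5 and 3 Smad7 was at 70.3, 69.3, 96.2 and 93.1 CPM in FA, at 60.5, 58.1, 54.1 and 51.2 CPM in EBs and at 12.5, 9.15, 13.8 and 10.9 CPM in N2B27. All 3 cultures were separate, with a log2 difference of FA against N2B27 of 2.75 ± 0.15 (adjusted p = 4.64e-05) and of FA against EB of 0.57 ± 0.14 (adjusted p = 0.0118). Smad7 had returned part of the way in N2B27 by days 5 and 7, at 14.22, 28.5, 22.3 and 28.7 CPM against 36.2, 83.7 and 61.6 CPM in FA and 40.2, 70.3, 36.2 and 35.2 CPM in EBs. The FA values were still above those of N2B27, but the difference of 1.21 ± 0.39 did not pass the threshold (adjusted p = 0.0676).

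**Figure D3:**
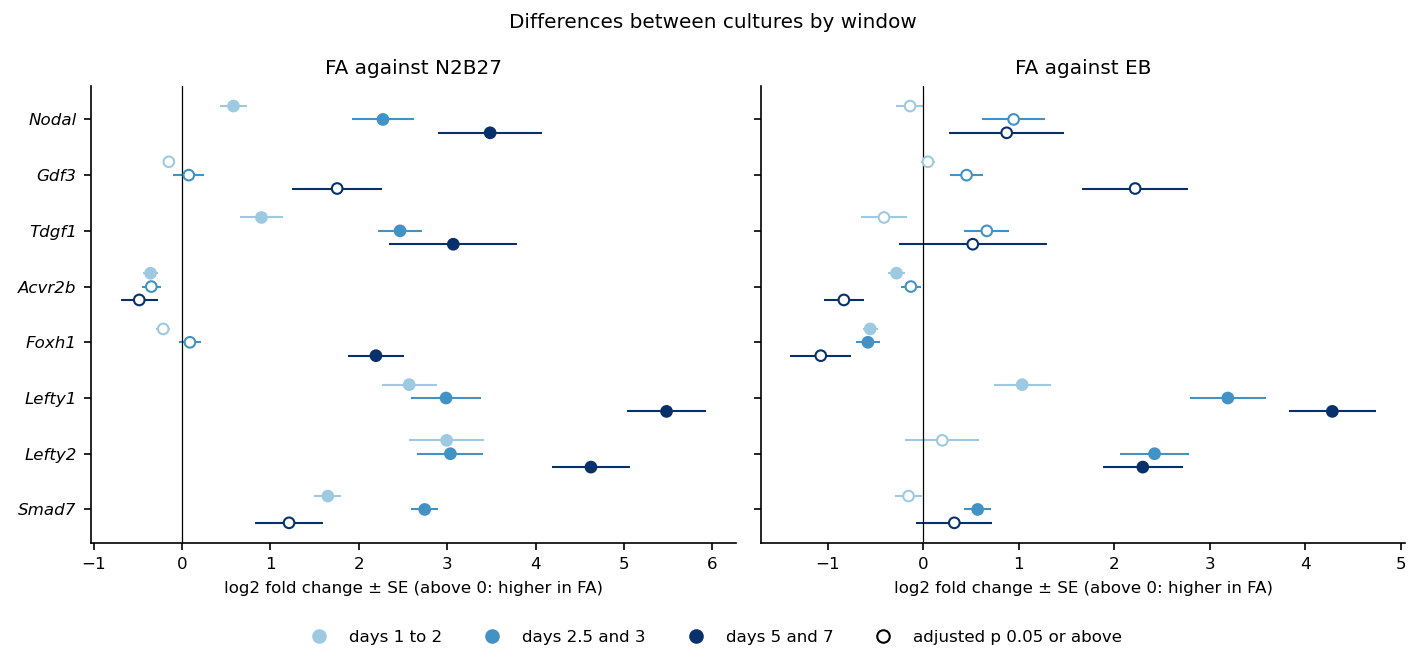
Log2 fold change of each gene in FA against N2B27 (left) and against EB (right) with its SE, for days 1 to 2 (light), 2.5 and 3 (middle) and 5 and 7 (dark), filled where the adjusted p was under 0.05. The Lefty1 difference against N2B27 was 2.57, 2.99 and 5.48 in the 3 windows, while Foxh1 and Acvr2b lay left of 0 in all 3 windows against EB.

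Against EB, fewer of the genes differed. At days 1 to 2, Lefty1 was higher and Foxh1 and Acvr2b were lower in FA, 3 of 8 when 35.4% of all genes passed. At days 2.5 and 3, Lefty1, Lefty2 and Smad7 were higher and Foxh1 was lower (31.1% of all genes). In the SL courses alone 7 of the 8 passed, when 26.5% of all genes did, and in the 2iL courses alone 3 passed (Foxh1, Lefty1 and Lefty2), when 22.8% of all genes did. At days 5 and 7, Lefty1 and Lefty2 were higher and none was lower (2.63% of all genes). Both contrasts use the same FA libraries, so their values are not independent.

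Compared per length, as RPKM (CPM divided by the exon length in kilobases), the order of the members shifted with the culture. Tdgf1 was the most abundant at day 0 in 2iL, with a median of 82.7 RPKM, ahead of Gdf3 (35.5), Smad7 (25.9) and Nodal (25.2), whereas Lefty1 stood at 4.06 RPKM and Acvr2b at 2.17 RPKM. In FA at days 2.5 and 3, Lefty1 led with a median of 211 RPKM, followed by Tdgf1 at 91.7 RPKM and Lefty2 at 72.3 RPKM. In N2B27 at days 5 and 7 no median exceeded 6.28 RPKM, the level of Foxh1, and in EBs of that window Foxh1 led at 70.9 RPKM.

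Whether the effect of FA depended on the starting medium was tested directly, as the difference between 2iL and SL in the log2 difference of FA against N2B27. By edgeR none of the 8 genes passed at days 1 to 2 (1.38% of all genes), at days 2.5 and 3 (0.0921%) or at days 5 and 7 (0%). By DESeq2 none of the 8 passed after adjustment either, when 255, 103 and 18 of all genes did. At an unadjusted p under 0.05 the counts of the 8 were 0, 0 and 1 with both tools. The 1 gene was Smad7 at days 5 and 7, where the log2 difference from 2iL minus that from SL was -1.28 ± 0.35 (unadjusted p = 0.0108, adjusted p = 1). It was 36.2 against 28.5 CPM at day 7 from 2iL, and 83.7 against 22.3 CPM at day 5 and 61.6 against 28.7 CPM at day 7 from SL. The SE differed between genes and windows. At days 1 to 2 it was 0.14 for Foxh1 and 0.18 for Acvr2b, and at days 2.5 and 3 it was 0.74 for Lefty1. At days 5 and 7, where day 7 was the only FA library from 2iL, it reached 1.17 for Nodal and 1.37 for Tdgf1. For Lefty1, Nodal and Tdgf1 in these windows a dependence on the medium as large as the SE was not detectable. With only FA and N2B27 in the fit, Lefty2 at days 1 to 2 passed narrowly (0.74 ± 0.21, adjusted p = 0.0499).

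Between the starting media, 3 of the 8 genes differed in level over days 1 to 2, a share not above the 49% of all genes that differed. Gdf3 was higher in the courses from 2iL (0.85 ± 0.06, adjusted p = 8.41e-07), Foxh1 was higher (0.49 ± 0.07, adjusted p = 0.000153) and Acvr2b was lower (-0.33 ± 0.07, adjusted p = 0.00153). For Nodal the difference was 0.01 ± 0.11 (adjusted p = 0.945), whereas without the EB libraries 6 of the 8 genes passed (44.1% of all genes) and Nodal was lower from 2iL by a log2 difference of -0.23 (adjusted p = 0.0142).

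On leaving 2iL, Smad7 fell and Acvr2b and Lefty1 rose past the threshold in a fit with terms for day and culture. The culture terms also applied to the day 0 libraries, which had not yet been differentiated. In this fit the mean of days 1 to 2 against day 0 was -1.77 ± 0.41 for Smad7 (adjusted p = 0.00209). It was 0.54 ± 0.11 for Acvr2b (adjusted p = 0.000860) and 2.53 ± 0.95 for Lefty1 (adjusted p = 0.0378, or 0.0914 with an estimated correlation). These were 3 of 8 genes when 45.4% of all genes passed. Without the culture terms only Acvr2b passed (adjusted p = 0.0217), with -1.26 for Smad7 (0.0926) and 3.30 for Lefty1 (0.0591). With an estimated correlation in place of the culture terms, Smad7 passed (-1.41, adjusted p = 0.0117). Without the N2B27 course the Smad7 difference was -0.65 (adjusted p = 0.0445). The Lefty1 call was lost without EB (adjusted p = 0.126) or without FA (0.0846), and the sum of Lefty1 and Lefty2 did not pass (1.13, adjusted p = 0.285). Foxh1 missed the threshold with 1.25 ± 0.51 (adjusted p = 0.0538), and passed it without EB (0.0161) or without N2B27 (0.00905). For SL the single day 0 library allowed no such test.

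Between days 1 to 2 and days 5 and 7, most of the genes fell in EBs and in N2B27 and fewer did so in FA. In N2B27, Gdf3 (-4.04 ± 0.36), Tdgf1 (-3.74 ± 0.55), Nodal (-3.25 ± 0.47), Foxh1 (-2.75 ± 0.23), Lefty1 (-2.45 ± 0.71) and Lefty2 (-2.13 ± 0.73) fell and Acvr2b rose (0.72 ± 0.16), 7 of 8 when 69.3% of all genes changed. With an estimated correlation the Lefty1 and Lefty2 calls were lost (adjusted p = 0.154 and 0.294). In EBs, Gdf3, Lefty1, Lefty2, Tdgf1, Nodal and Smad7 fell and Acvr2b rose (65% of all genes), the changes ranging from -4.21 ± 0.36 for Gdf3 to 1.16 ± 0.15 for Acvr2b. In FA, Gdf3 (-2.09 ± 0.36) and Tdgf1 (-1.60 ± 0.54) fell and Acvr2b rose (0.57 ± 0.17), 3 of 8 when 59.1% of all genes changed. The difference of these changes between cultures was not tested.

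The rest of the pathway was read from 6 lists of 50 genes in all: ligands and their convertases, receptors, transducers, extracellular inhibitors, intracellular feedback genes and targets of the primitive streak. These lists too were chosen with earlier results of these data known. Of the 45 that could be tested at days 1 to 2, 7 were higher and 1 was lower in FA than in N2B27, or 17.8% beside 6.59% of all genes. At days 2.5 and 3 it was 10 higher and 4 lower of 46 (30.4% beside 14.8%), and at days 5 and 7 it was 12 higher and 5 lower of 47 (36.2% beside 16%). With an estimated correlation 4, 12 and 17 of these calls remained. The higher genes came mostly from the streak targets (3, 5 and 6 of 9 in the 3 windows) and the feedback genes (3, 3 and 4 of 10), and none came from the ligands (6 and then 8 tested) or the 6 receptors. Summed over the 9 streak targets, FA was at 92.8 to 166 CPM and N2B27 at 37.6 to 55.9 CPM at days 2.5 and 3. At days 5 and 7 the sums overlapped, at 82.3 to 168 CPM in FA and 47.2 to 142 CPM in N2B27. EBs were then at 225 to 854 CPM.

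Among the streak targets, which mark the cells that leave the epiblast, Fgf8 differed at days 1 to 2 by 2.10 on the log2 scale (adjusted p = 0.0123). At days 2.5 and 3, Gsc differed by 3.86 (adjusted p = 0.00180) and Mixl1 by 2.67 (adjusted p = 0.00143), and at days 5 and 7, T by 4.33 (adjusted p = 0.00912). Levels stayed low for several of them: Gsc was at 0.980 to 6.15 CPM in FA and at 0.0638 to 0.432 CPM in N2B27 at days 2.5 and 3. Sox17, a gene of definitive and extraembryonic endoderm, was lower in FA by -1.94 (adjusted p = 0.00875) and then -4.53 (adjusted p = 0.00129), at 2.52 to 3.31 CPM in FA and 22.4 to 59.1 CPM in N2B27 at days 5 and 7, where the extraembryonic endoderm markers were also high in N2B27. T was lower in FA than in EB at days 5 and 7 (-3.14, adjusted p = 0.0380), at 4.11 to 9.59 CPM against 44.7 to 370 CPM.

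Cer1, a secreted inhibitor of Nodal and BMP ligands, was higher in FA than in N2B27 in every window, by 2.16 (adjusted p = 0.0419), 3.10 (adjusted p = 0.00162) and 5.87 (adjusted p = 0.0142), although at days 1 to 2 it was at 0 CPM in some libraries and its medians, 0.153 and 0.140 CPM, were below the level of 3 counts. Fst, which encodes follistatin, an inhibitor of Activin, differed the other way at days 2.5 and 3, by -1.47 (adjusted p = 0.0203), with 9.24 to 15.2 CPM in FA and 18.1 to 54.2 CPM in N2B27. Gdf11, another ligand of the family, was lower in FA in each window, by -0.45, -0.80 and -1.32 (adjusted p = 0.0129, 0.00558 and 0.0230). The receptors Tgfbr2 at days 2.5 and 3 (-0.89, adjusted p = 0.0140) and Tgfbr3 at days 5 and 7 (-2.26, adjusted p = 0.0130) were lower as well.

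**Figure D4:**
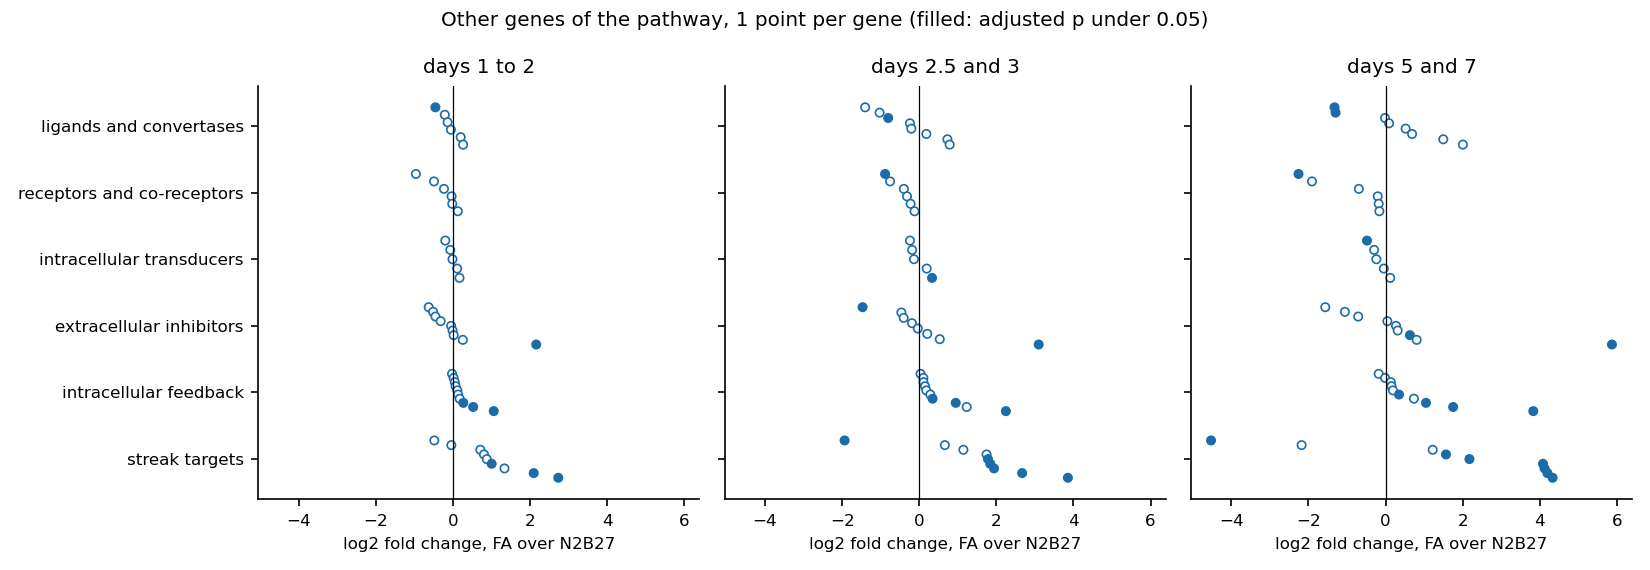
Log2 fold change in FA over N2B27 of the other pathway genes, 1 point per gene in 6 lists, at days 1 to 2, 2.5 and 3, and 5 and 7, filled where the adjusted p was under 0.05. Filled points lie to the right mainly among feedback genes and streak targets, with Cer1 as the rightmost extracellular inhibitor and Sox17 as the leftmost streak target at days 2.5 and 3 and at days 5 and 7.

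Against EB the same lists gave 8 higher and 7 lower of 45 at days 1 to 2 (33.3%, beside 35.4% of all genes) and 10 higher and 7 lower of 46 at days 2.5 and 3 (37% beside 31.1%), which is near the background. In the last window it was 3 higher and 2 lower of 47 (10.6% beside 2.63%). With an estimated correlation 12, 16 and 5 of these calls remained. Inhbb, a subunit of Activin B, differed by 1.57 at days 1 to 2 (adjusted p = 0.00506), and Fst by -1.69 (adjusted p = 0.00169). At days 2.5 and 3, Cer1 (2.22) and Fgf8 (2.00) were among the largest rises and Cfc1, a co-receptor related to Tdgf1, was the largest fall (-1.60, adjusted p = 0.0115).

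The genes whose profile was most like that of each member were ranked over 45 libraries and 14913 genes, by the correlation of log2(CPM + 1). The points share libraries, time courses and the change with time, so these values are descriptions. Nodal and Tdgf1 were each other's nearest gene (r = 0.942), with Pou5f1 next for both (0.873 and 0.916). Lefty2 was nearest to Lefty1 (r = 0.889). Gdf3 was most like Gm2381 (0.960), Acvr2b most like Clip3 (0.927), Foxh1 most like Socs2 (0.829) and Smad7 most like Cbfa2t2 (0.799). Between members, r was 0.680 for Nodal and Smad7, 0.400 for Nodal and Lefty1 and -0.801 for Gdf3 and Acvr2b.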

How the data were processed

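Total RNA depleted of ribosomal RNA was sequenced from strand-specific libraries. The authors trimmed reads with TrimGalore, aligned them to GRCm38 with TopHat2 (guided by Ensembl 82, 1 mismatch allowed) and counted them per gene with featureCounts, and the deposited values are raw counts. Versions, and the treatment of reads that fit several places, are not given in the sources used here. Library totals ranged from 13093226 to 39804240 counts, which limits precision for genes under about 1 CPM, and 435 rows without a symbol held at most 0.0014% of a library. CPM was computed over the library total and RPKM over GENCODE vM21 exon length (34599 of 35372 genes matched).

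Groups followed the labels of starting medium, culture and day. Cultures were compared with edgeR 4.0.16 in R 4.3.3 (TMM scaling, low counts removed by filterByExpr, quasi-likelihood F test, Benjamini-Hochberg adjustment over all genes, threshold 0.05), with medium and day as a block and all 3 cultures of a window in the fit. The SE was taken as the log2 fold change divided by the square root of F. Changes over time were fitted on all 41 libraries from day 1 on with the starting medium as a term, and the step from day 0 on the 23 libraries of the 2iL courses. On simulated counts for FA against N2B27 at days 1 to 2 (14401 genes), 81% of genes changed by 1 on the log2 scale and 97% of those changed by 2 were recovered, and 6.81% of the genes called had not been changed. The simulated libraries were independent, with no effect of medium, day or time course, so these rates need not hold for the real libraries. DESeq2 1.42.0, limma 3.58.1 for the estimated correlation, other filters, single media and omitted libraries were tried as alternatives.

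The 8 genes and all lists were chosen with earlier results of these data known. Named are the 8 genes, from the lists the 3 largest rises and falls past the threshold in a comparison, and for each of the 8 the most alike genes among those with at least 1 CPM in 5 libraries. A few genes that this rule names are not reported here. The labels give no replicate number that pairs separate cultures. The 3 day 0 libraries in 2iL belong to the 3 time courses.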

Additional observations from a re-analysis of the deposited data

Results flagged for a closer look

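In 4 of 64 groups of 4 or 6 libraries, 1 library stood far from the rest of its window. By chance alone about 1 group in 20 is flagged. Each group mixes days and starting media, so a course that moves with time can set a library apart. Lefty1 in FA at days 2.5 and 3 was at 892.3 CPM on day 3 from 2iL, against 311.6 to 383.6 CPM in the other 3 libraries. Tdgf1 in EBs at days 2.5 and 3 was at 258.7 CPM on day 2.5 from 2iL, against 103.1 to 122.2 CPM. Tdgf1 in EBs at days 5 and 7 was at 247.7 CPM on day 5 from 2iL, against 30.32 to 59.75 CPM. Smad7 in EBs at days 5 and 7 was at 70.31 CPM on day 7 from 2iL, against 35.15 to 40.17 CPM. All 4 were the highest library of their group and all came from courses that began in 2iL.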

How the results depend on the processing

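The counts of the 8 genes past the threshold moved most with the treatment of days as replicates. For FA against N2B27 at days 1 to 2 (6 genes), the count was 2 with no replicate block, 3 with an estimated correlation within time course, 0 with counts summed over the days of a course and 3 in the 2iL courses alone, and 3 to 4 when 1 medium and day was left out (3 without day 1 or day 2 of 2iL or day 1.5 of SL). Smad7, Lefty1 and Lefty2 stayed past the threshold in all 6 of those omissions. For FA against EB at days 1 to 2 (3 genes) it was 0 with no replicate block and 1 with summed counts, and in the 2iL courses alone it was also 3, with Nodal and Tdgf1 in place of Lefty1 and Acvr2b. At days 2.5 and 3 (4 genes) it was 7 in the SL courses alone. For FA against N2B27 at days 5 and 7 (5 genes) it was 0 in the 2iL courses alone and 2 to 5 with a medium and day left out, the 2 without day 5 of SL, when Lefty1 and Lefty2 remained. For FA against EB at days 5 and 7 (2 genes) it was 5 with DESeq2, 4 with an estimated correlation, 1 with only both cultures in the fit, 0 in the 2iL courses alone, 1 in the SL courses alone and 0 to 2 with omissions (1 without day 7 of 2iL, 0 without day 5 or day 7 of SL). With DESeq2 more of all genes passed there too: 883 were higher and 747 lower of 15466, beside 261 and 145 in the main fit. The test of dependence on the medium at days 1 to 2 (0 genes) gave 1 with only both cultures in the fit. The change over time in EBs (7 genes) gave 3 in the 2iL courses alone, the step from day 0 (3 genes) gave 1 with no replicate block, and 2iL against SL (3 genes) gave 3 to 6 with a culture left out, the 6 without EB. The fits of single media and summed courses hold fewer libraries, and the cause of the differences between counts was not tested. The share of all genes is not given for most of these refits, so the counts describe the fits rather than the 8 genes. The other alternatives kept the counts within 1.5 times.

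Of 1304 refitted values of the 8 genes, 83 changed sign, and in 1 of these a fit passed the threshold: Nodal in 2iL against SL without EB (-0.23, range over omissions to 0.14). The other sign changes among values given above were past the threshold in neither fit. In FA against EB at days 1 to 2 they were Nodal (0.22) and Tdgf1 (0.18) in SL alone, Lefty2 (-0.35) and Gdf3 (-0.087) in 2iL alone, Lefty2 without day 2 of SL (-0.064, range over omissions to 0.53) and Gdf3 without day 1.5 of SL (-0.0011, range to 0.094). At later days they were Foxh1 against N2B27 at days 2.5 and 3 in 2iL alone (-0.0044), Acvr2b against EB at days 2.5 and 3 in SL alone (0.014), Tdgf1 against EB at days 5 and 7 with no replicate block (-0.072), with summed counts (-0.49) and in 2iL alone (-0.67), and Smad7 against EB at days 5 and 7 in 2iL alone (-1.09) and without day 5 of SL (-0.21, range to 0.91). TMM scaling factors lay between 0.853 and 1.09. The estimated correlation within a course was 0.193, 0.212 and -0.123 in the 3 windows of the cultures, and it could not be fitted for the dependence on the medium, nor could that test at days 5 and 7 be fitted without day 7 of 2iL.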
